A study of Homo sapiens with 12 samples.

Results

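The genes described here are 35 neighbours on the long arm of human chromosome 19, listed from ZNF146 at one end to KCNK6 at the other. Of these, 29 carry a zinc finger symbol, and the 6 others are WDR87, SIPA1L3, DPF1, PPP1R14A, YIF1B and KCNK6. The stretch was chosen by where its genes lie and by measured values of these same arrays, and the sources used here do not say which comparison drew attention to it. The comparisons of the groups are therefore given as descriptions of the members. Limma calls and adjusted p-values are printed as labels of single genes, and no test of the stretch is read from them. A probe set naming 1 gene was found for 34 of the 35 members, out of 18417 genes with such a probe set on the array. HKR1 was found through its newer symbol ZNF875, and ZNF260 had no such probe set. A filter on dim probe sets left 29 members for testing among 16939 genes.

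RNA of 2 lines was hybridised to 12 whole-transcript arrays: A549, a lung adenocarcinoma line whose name 1 label field spells A459, and HTB56, a lung cancer line also known as Calu-6. H3R and A3R are HTB56 and A549 cells after 3 rounds of selection in mice for growth as lung nodules from cells injected into a vein. H0R and A0R are the same lines with 0 rounds of selection. Each of the 4 groups has 3 arrays, all of RNA from cells not treated with 5-azacytidine. Each group is thus 1 cell line, and neither separate cultures nor separate selections are given for its replicates, so a p-value covers the spread between these arrays and no more.

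Most zinc finger genes of chromosome 19 stand in tandem clusters of related genes, and many encode a KRAB domain at the start of the protein followed by a row of DNA-binding fingers. The KRAB domain binds TRIM28, which brings in the histone methyltransferase SETDB1, heterochromatin protein HP1 and histone deacetylases, and the bound DNA is then silenced. Many of these proteins bind transposable elements. The clusters themselves carry histone H3 lysine 9 trimethylation over the finger exons, and promoters of several such genes are described as methylated in tumours.

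All values are log2 RMA signals, and a difference of 1 on this scale is a doubling of the signal, although RMA compresses differences of dim genes. Array medians lay between 5.55 and 5.67, and replicate arrays had correlations across probe sets of 0.988 to 0.995. Of the 4 epithelial markers, KRT8 averaged 11.45 in H3R, 11.20 in H0R, 13.03 in A3R and 13.26 in A0R. KRT18 averaged 12.64, 12.69, 13.47 and 13.55 in the same order. KRT19 averaged 6.22, 6.52, 9.96 and 8.82, and EPCAM averaged 7.34, 6.32, 7.60 and 8.02, again in that order. All 4 averaged lower in the HTB56 groups. The 4 markers of A549 (AKR1B10, AKR1C1, ALDH1A1 and ALDH3A1) averaged between 12.4 and 13.6 in the A549 groups and between 6.35 and 8.62 in the HTB56 groups. A0R replicate 2 stood apart: 41 genes were bright in HTB56 but dim in A549, and on this array their median signal exceeded that of the A549 arrays by 0.57, with -0.11 to 0.06 on the other A549 arrays. For comparisons that use it, member counts are therefore also given without it. Medians for A3R against A0R and H0R against A0R, and the differences of part of the named members, are likewise given without it.

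The DNA just upstream of 6 zinc finger members is printed first because methylation at CG dinucleotides is a known form of promoter silencing in this family, although methylation was not measured on these arrays. The 6 were picked after their values were seen. ZNF585B, ZNF585A, ZFP30 and ZNF607 are members whose signal was higher in H3R than in H0R, and ZNF383 and ZFP82 are members for which the same comparison gave no call. Each run is the 250 bases before the 5′-most annotated start, 5′ to 3′ on the strand of the gene, from RefSeq on GRCh38.p14, with every CG in capitals. The regions, in the order printed, are chr19:37210537-37210786 (minus strand), chr19:37172696-37172945 (minus), chr19:37656262-37656511 (minus), chr19:37719762-37720011 (minus), chr19:37217964-37218213 (plus) and chr19:36418645-36418894 (minus).
ZNF585B: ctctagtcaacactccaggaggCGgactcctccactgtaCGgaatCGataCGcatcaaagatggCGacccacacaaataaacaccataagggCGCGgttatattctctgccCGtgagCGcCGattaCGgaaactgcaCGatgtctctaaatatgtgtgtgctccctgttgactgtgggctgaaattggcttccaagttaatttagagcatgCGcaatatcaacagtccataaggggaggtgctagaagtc
ZNF585A: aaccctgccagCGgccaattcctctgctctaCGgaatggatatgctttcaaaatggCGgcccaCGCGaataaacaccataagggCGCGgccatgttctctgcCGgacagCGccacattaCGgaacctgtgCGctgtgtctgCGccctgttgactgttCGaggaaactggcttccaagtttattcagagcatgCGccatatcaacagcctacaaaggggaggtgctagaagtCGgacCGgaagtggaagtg
ZFP30: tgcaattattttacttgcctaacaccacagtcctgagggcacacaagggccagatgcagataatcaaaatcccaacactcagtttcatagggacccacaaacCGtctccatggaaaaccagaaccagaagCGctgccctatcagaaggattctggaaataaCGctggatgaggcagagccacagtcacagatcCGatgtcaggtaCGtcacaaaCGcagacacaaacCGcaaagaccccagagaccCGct
ZNF607: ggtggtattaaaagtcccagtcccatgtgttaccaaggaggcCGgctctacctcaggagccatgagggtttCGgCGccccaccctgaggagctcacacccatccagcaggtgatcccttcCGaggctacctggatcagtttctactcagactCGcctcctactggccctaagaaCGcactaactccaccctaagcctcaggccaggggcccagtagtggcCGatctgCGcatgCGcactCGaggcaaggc
ZNF383: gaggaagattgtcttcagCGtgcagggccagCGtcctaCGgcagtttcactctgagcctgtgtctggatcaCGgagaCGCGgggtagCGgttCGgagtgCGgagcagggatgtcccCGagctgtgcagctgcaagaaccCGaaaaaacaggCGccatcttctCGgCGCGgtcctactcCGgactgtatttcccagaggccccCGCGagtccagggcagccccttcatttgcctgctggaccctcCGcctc
ZFP82: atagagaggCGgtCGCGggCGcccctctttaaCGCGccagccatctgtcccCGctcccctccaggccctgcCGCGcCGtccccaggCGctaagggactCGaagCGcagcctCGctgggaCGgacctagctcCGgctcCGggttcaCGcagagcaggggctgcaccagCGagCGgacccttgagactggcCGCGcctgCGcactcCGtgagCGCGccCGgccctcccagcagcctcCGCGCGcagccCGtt

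These runs hold 13, 16, 8, 10, 19 and 31 CG dinucleotides in the order printed. CG reads the same on both strands, so 1 search covers both. Over a window of 300 bases that also takes in the first 50 bases of the transcript, RefSeq promoters were found for 32 of the 35 members, and the median was 22.5 CG (range 12 to 40). The median over the promoters of 27305 genes was 13, and over 238 other zinc finger genes of chromosome 19 it was 20. The ZFP30 window held 12 CG, the lowest of the 32, and 52.7% of all promoters hold at least as many. The ZFP82 window held 37, the highest of the zinc finger members and a number that 10.99% of all promoters reach. The printed runs thus take in both extremes of the zinc finger members, so their contrast does not stand for called against not called members. ZNF793 with 16 CG, ZNF569 with 17, and HKR1 and ZNF567 with 18 each were not called in H3R against H0R. ZNF585A and ZNF585B are close paralogues, and their windows were identical at 193 of 273 aligned positions (70.7%). Whether the probe set of 1 of the pair also reads transcripts of the other was not tested, so the values of both are uncertain.

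The comparison of H3R with H0R asks how the recovered HTB56 line differs from its parent. Of the 29 members tested, 12 had a higher signal in H3R at a limma adjusted p below 0.05 and 0 had a lower one. Over all genes tested, 19.5% were called in this comparison, 8.57% higher and 10.9% lower. The arrays of the groups did not overlap for 14 of the 29 members, and for 34.3% of all genes. The median difference was 0.30 over the 29 members and 0.02 over all genes. It was 0.19 without H0R replicate 1 and 0.18 with no filter on dim probe sets. Since these values may have chosen the stretch, nothing is read from the counts. In bulk RNA, fewer cells carrying a transcript and less transcript per cell cannot be told apart.

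**Figure D1:**
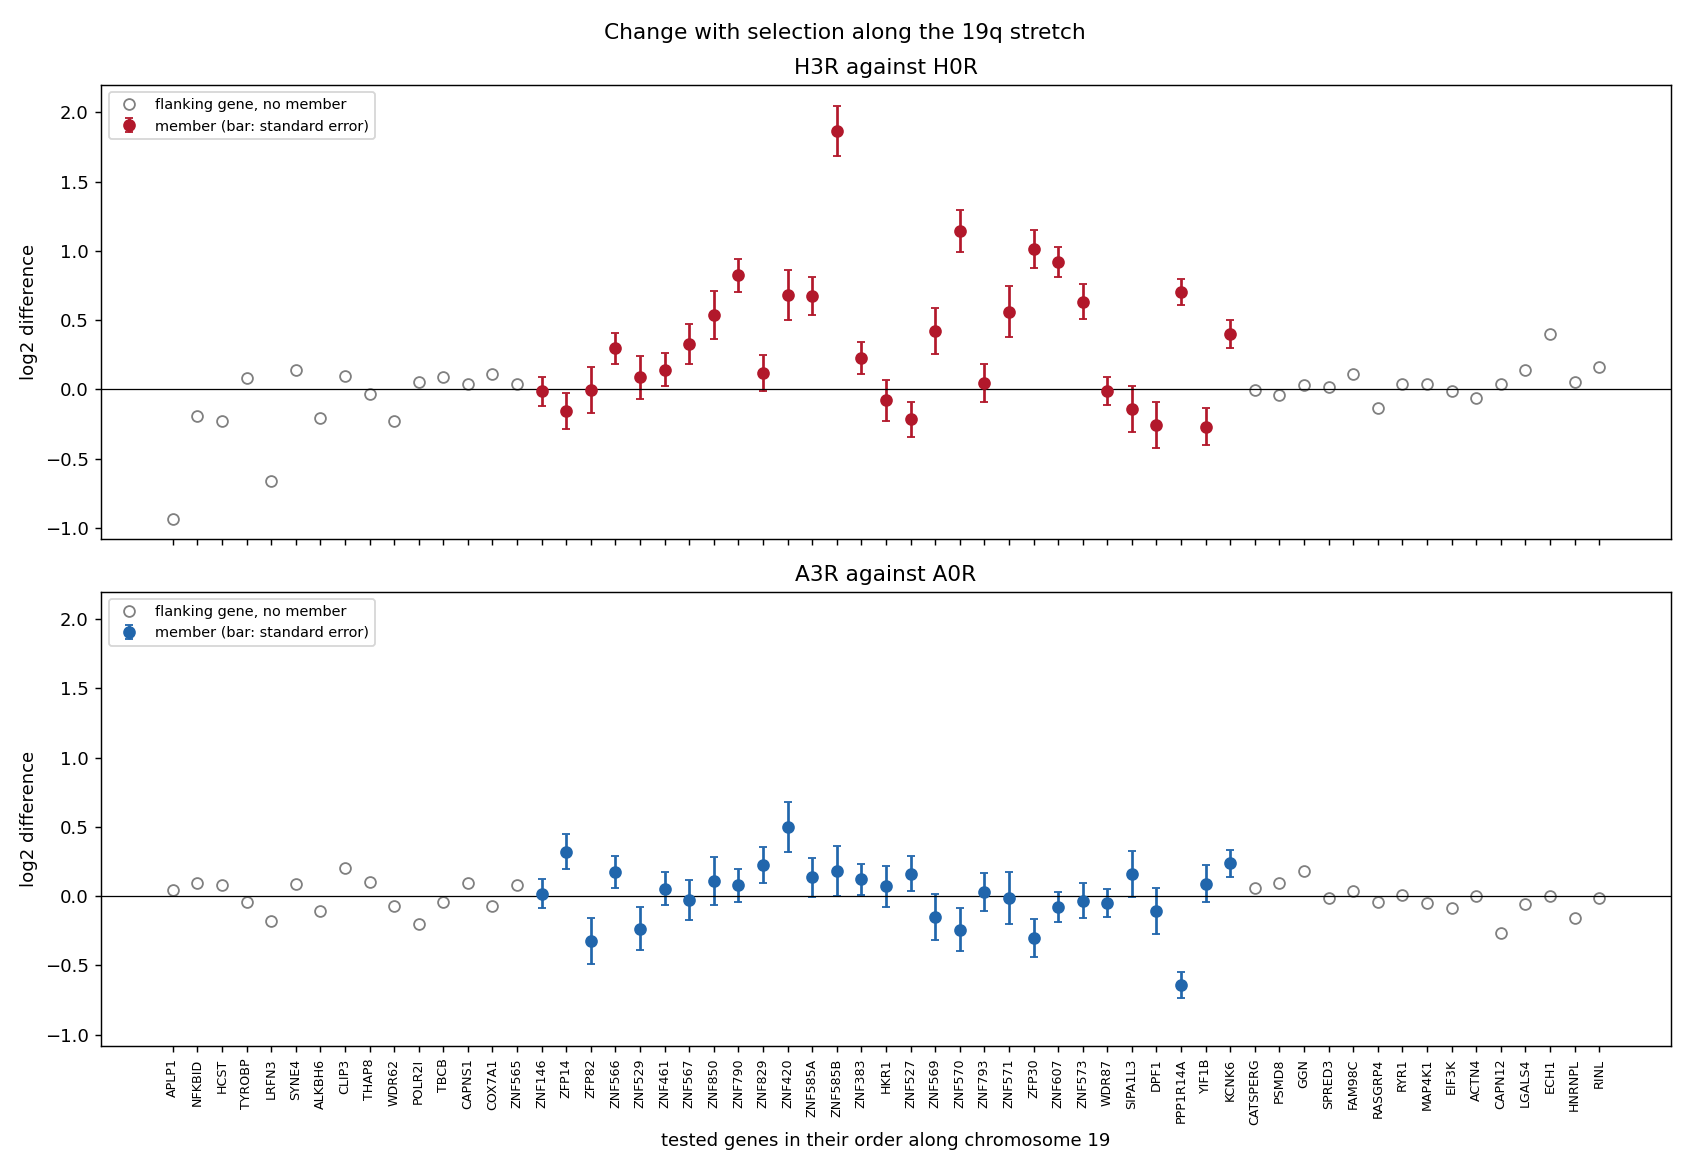
Log2 difference between selected and unselected cells (y axis) of the 29 tested members and of 15 tested genes on either side, in gene order along chromosome 19 (x axis), with H3R against H0R above and A3R against A0R below. Filled points are members with the standard error as a bar, and open points are flanking genes. In the upper panel ZNF585B stands highest at 1.87, and in the lower panel the members lie between -0.64 and 0.50.

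Within the zinc finger members, ZNF585B had the largest difference. Its signals were 6.47, 6.09 and 6.42 on the H3R arrays, against 4.47, 4.14 and 4.77 on the H0R arrays. Each H3R array was above each H0R array, and the difference of the means was 1.87 (SE 0.18), a fold of 3.65. Its paralogue ZNF585A read 5.15, 4.80 and 5.10 on the H3R arrays, against 4.30, 4.42 and 4.32 on the H0R arrays, again without overlap. That difference was 0.67 (SE 0.14), smaller than that of ZNF585B.

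ZNF570 encodes a further zinc finger protein of the cluster. It had signals of 5.34, 5.04 and 5.18 on the H3R arrays, against 3.91, 3.91 and 4.30 on the H0R arrays. The lowest H3R array exceeded the highest H0R array, and the difference was 1.14 (SE 0.15). ZFP30, whose mouse counterpart has been linked to airway levels of the chemokine CXCL1 and to neutrophil recruitment, read 6.76, 6.42 and 6.83 on the H3R arrays, against 5.60, 5.53 and 5.84 on the H0R arrays. The groups did not overlap, and the H3R mean was 1.01 higher (SE 0.14).

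ZNF607 read 5.71, 5.63 and 5.84 on the H3R arrays, against 4.72, 4.95 and 4.74 on the H0R arrays. No array of one group reached the other, and the difference was 0.92 (SE 0.11). ZNF790 was dimmer, at 4.76, 4.76 and 4.48 on the H3R arrays, against 4.01, 3.68 and 3.84 on the H0R arrays. Its groups were likewise apart, by 0.82 (SE 0.12). ZNF420, also known as Apak, a KRAB protein that represses part of the p53 response together with TRIM28, read 6.51, 6.37 and 6.68 on the H3R arrays, against 5.84, 5.43 and 6.24 on the H0R arrays. The H3R arrays were all higher although the H0R arrays spread widely, and the difference was 0.68 (SE 0.18). Without H0R replicate 2 or without H3R replicate 3 the call of ZNF420 was lost, at a highest limma adjusted p of 0.0816.

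**Figure D2:**
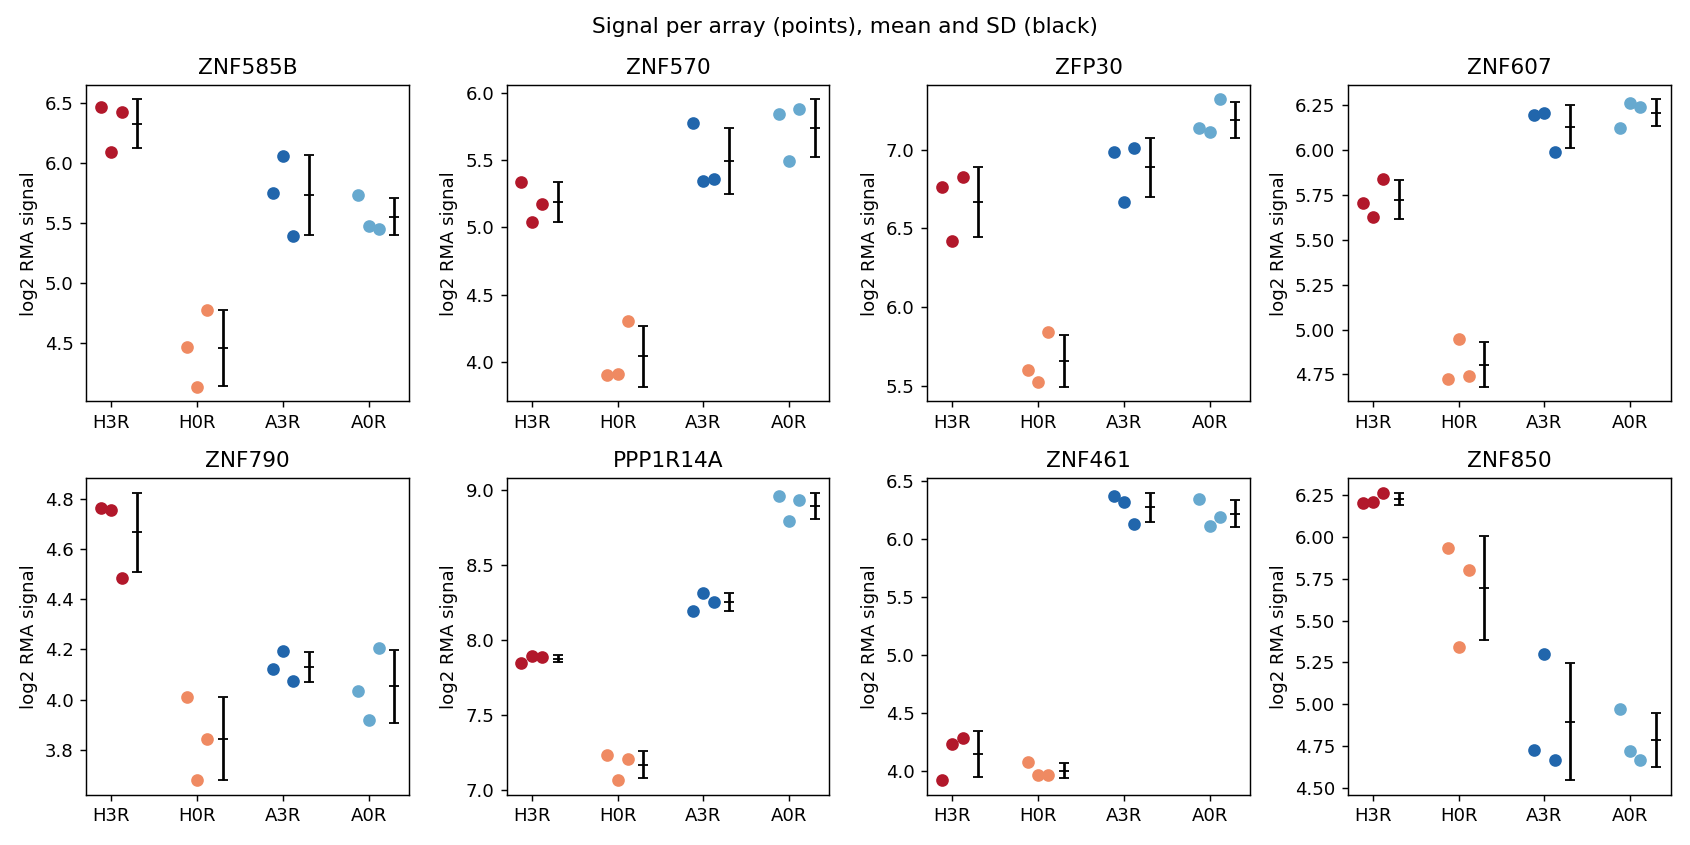
Log2 RMA signal (y axis) of 8 members on each array (points), by group (x axis, H3R, H0R, A3R and A0R), with the mean and SD beside the points in black. The H0R points of ZNF585B, ZNF570, ZFP30 and ZNF607 lie below those of the other groups, and the points of ZNF461 are low in both HTB56 groups.

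Among the neighbours without a zinc finger symbol, PPP1R14A and KCNK6 were called higher in H3R. PPP1R14A encodes CPI-17, an inhibitor of myosin light chain phosphatase. It read 7.85, 7.89 and 7.88 on the H3R arrays, against 7.24, 7.07 and 7.21 on the H0R arrays. The H3R arrays were nearly identical and lay above each H0R array, with a difference of 0.71 (SE 0.09). KCNK6, a two-pore potassium channel of the TWIK family and the end of the stretch, read 6.47, 6.61 and 6.61 on the H3R arrays, against 6.21, 6.21 and 6.07 on the H0R arrays. It did not overlap either, and its difference was the smallest among the 12 called members at 0.40 (SE 0.10).

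ZNF573, ZNF571 and ZNF850 complete the 12, with differences of 0.63, 0.56 and 0.53. The calls of ZNF571 and ZNF850 rest on the settings: they were lost in 13 of 20 and in 8 of 21 alternatives. The 17 members not called lay between -0.27 and 0.42. ZNF146, the brightest member and a protein of fingers without a KRAB domain, averaged 10.14 in H3R and 10.16 in H0R. YIF1B, a protein of traffic between the endoplasmic reticulum and the Golgi apparatus, had 2 probe sets that disagreed, with differences of -0.27 for the brighter and 0.16 for the other.

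All 12 called members lay between ZNF850 and KCNK6. The stretch was divided after ZNF567, a gene named in its choice, and the division was made with the values known, so the counts on its sides are a description. From ZNF146 to ZNF567, 7 of 9 members were tested and 0 were called in H3R against H0R, with a median difference of 0.09. From ZNF850 to KCNK6, 22 of 26 were tested and 12 were called, with a median of 0.48. ZNF567, the last gene before that block, read 4.70, 4.26 and 4.79 on the H3R arrays, against 3.98, 4.45 and 4.33 on the H0R arrays, and the groups overlapped. Their difference was 0.33, or 0.19 without H0R replicate 1. The longest unbroken run of differences above 0 took in 11 tested members in a row, from ZNF566 to ZNF383.

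Just outside the ends, the nearest tested genes were ZNF565 at 0.04 and CATSPERG at -0.01. Of the 15 tested genes before the stretch, 0 were higher and 2 were lower in H3R, and of the 15 after it 0 were called in either direction. Over all genes tested, 8.57% were higher and 10.9% lower. Between the members lie 2 tested genes that are not listed, SPINT2 and C19orf33. SPINT2, a Kunitz-type inhibitor of the surface proteases hepsin and matriptase, read 8.65, 8.50 and 8.48 on the H3R arrays, against 6.71, 7.21 and 6.66 on the H0R arrays, and C19orf33 differed by 0.60. Both were higher in H3R without overlap, so a higher signal in this region was not limited to the listed genes.

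Markers of other cell types were also read in this comparison. Of 5 fibroblast markers, COL1A1 and COL3A1 were called higher in H3R and 0 were called lower. COL1A2 averaged slightly higher in H3R, and PDGFRB averaged lower, at 6.72 in H3R and 6.91 in H0R. The mean over the list lay between 5.92 and 5.96 on the H3R arrays, against between 5.31 and 5.47 on the H0R arrays. The higher mean of the list was thus not shared by all 5 markers. DCN, a defining fibroblast gene, averaged 2.74 in H3R and 2.68 in H0R, under the mean dimness limit of 3.48. Of 5 leukocyte markers, CD68 was higher. The mean over the 4 measured ones lay between 5.26 and 5.34 on the H3R arrays, against between 5.06 and 5.15 on the H0R arrays. PTPRC averaged 2.92 in H3R and 2.78 in H0R, CD3E 4.04 and 4.11, and ITGAM 4.69 and 4.69. Among 4 endothelial markers 0 were called. EPCAM was the 1 of 4 epithelial markers called higher, and the list averaged between 9.29 and 9.49 on the H3R arrays, against between 8.99 and 9.29 on the H0R arrays. All 4 A549 markers averaged lower in H3R, 1 of them called (AKR1C1), and the list averaged between 6.71 and 7.61 on the H3R arrays, against between 7.48 and 8.50 on the H0R arrays. The part of these shifts in the members' values was not tested.

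The comparison of A3R with A0R asks the same of A549. Of the 29 members, 0 were higher and 1 was lower, against 1.75% of all genes called, 0.945% higher and 0.809% lower. The groups did not overlap for 5 of the 29 members and for 12.7% of all genes, and the median difference was 0.05. Single arrays move that median, which was 0.01 without A3R replicate 1 or 2, 0.03 without A0R replicate 3 and 0.10 without A3R replicate 3. Without A0R replicate 2 the member counts were also 0 and 1 and the median was 0.04, while the calls over all genes numbered 192, against 297 with it. The called member was PPP1R14A, which read 8.19, 8.31 and 8.25 on the A3R arrays, against 8.96, 8.79 and 8.93 on the A0R arrays. Each A3R array was lower, by 0.64 on average (SE 0.09; a difference of -0.69 without A0R replicate 2), whereas in HTB56 the same gene was higher in the selected cells.

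The other 4 members without overlap in A549 were ZNF420, ZFP14, ZFP30 and KCNK6, none of them called. ZNF420 read 6.81, 6.91 and 6.81 on the A3R arrays, against 6.31, 6.07 and 6.65 on the A0R arrays, a difference of 0.50 (SE 0.18). ZFP14 differed by 0.32, with 4.58, 4.96 and 4.43 on the A3R arrays, against 4.21, 4.39 and 4.40 on the A0R arrays. These A3R arrays were the higher ones, with a narrow gap for ZFP14. ZFP30 read 6.98, 6.67 and 7.01 on the A3R arrays, against 7.14, 7.11 and 7.32 on the A0R arrays, a difference of -0.30 (SE 0.14). KCNK6 read 6.83, 7.08 and 7.04 on the A3R arrays, against 6.76, 6.75 and 6.74 on the A0R arrays, a difference of 0.24. ZFP30 was thus lower and KCNK6 higher on each A3R array, and in HTB56 both were higher on each H3R array. Without A3R replicate 2 the differences of ZFP14 and ZFP30 shrank to 0.17 and -0.19. Without A0R replicate 2 the differences were 0.37 for ZNF420, 0.35 for ZFP14, -0.34 for ZFP30 and 0.24 for KCNK6.

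The change in HTB56 minus the change in A549 was called above 0 for 7 of the 29 members and below 0 for 0, with 11.8% of all genes called, 5.22% above and 6.58% below. This difference contains the values that may have chosen the members, so it is a description. The 7 were ZNF585B at 1.69, ZNF570 at 1.39, PPP1R14A at 1.35, ZFP30 at 1.31, ZNF607 at 0.9997, ZNF790 at 0.75 and ZNF573 at 0.67. Without A0R replicate 2 the count was 6, since ZNF573 was lost. With the replicate number as a block 8 members were called above 0 and 2 below, beside 3458 of all genes, against 2000 without the block.

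**Figure D3:**
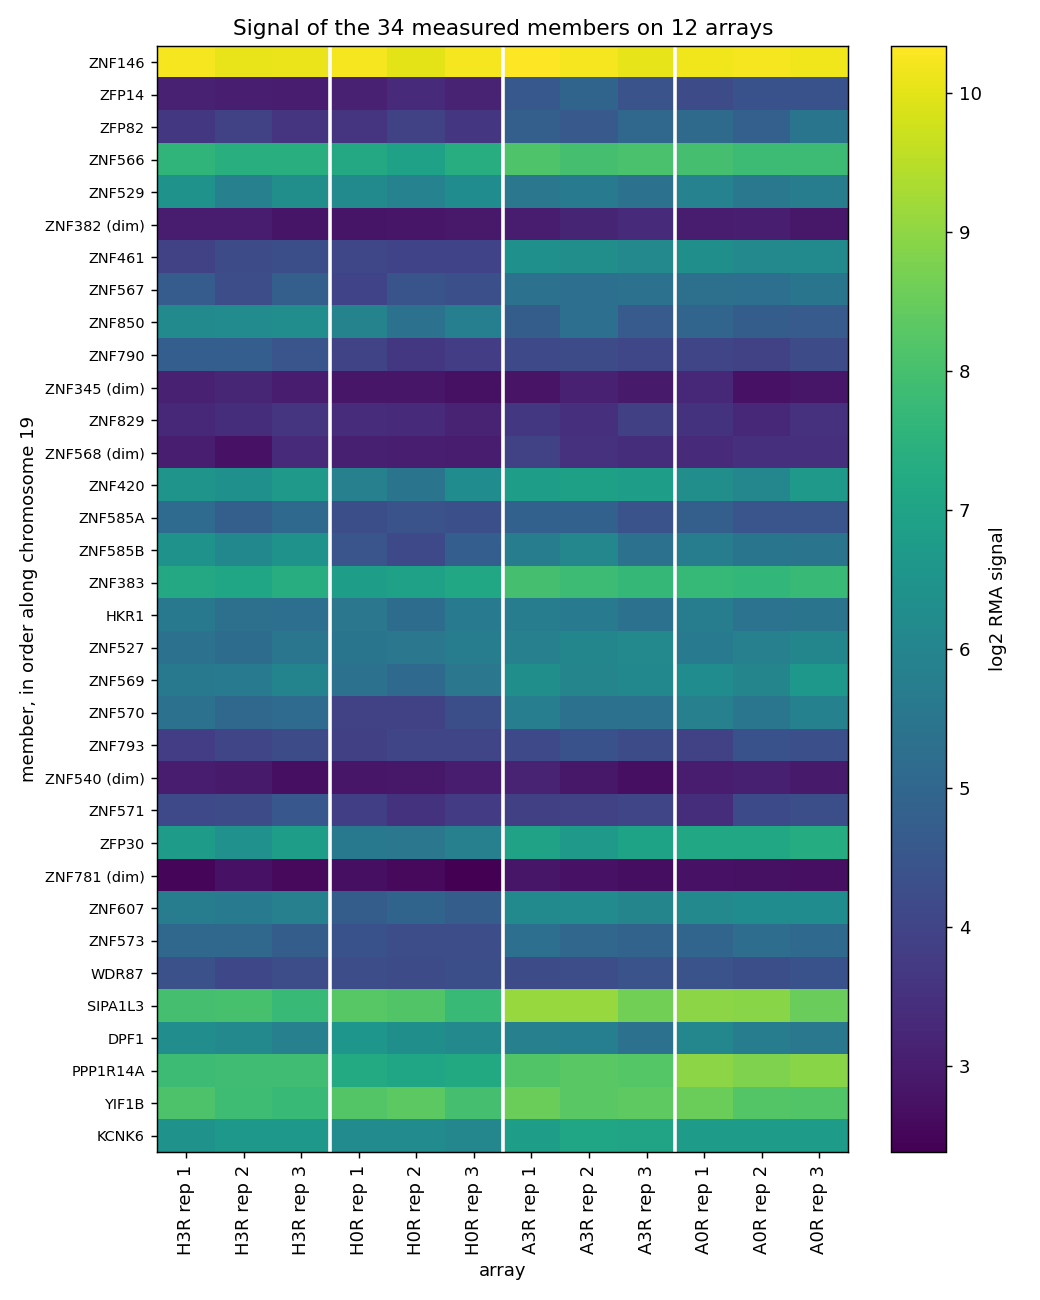
Log2 RMA signal (colour scale) of the 34 measured members (rows, in gene order) on the 12 arrays (columns, H3R, H0R, A3R and A0R from left to right); members marked dim did not pass the filter. ZNF146 is brightest at about 10.1 to 10.2 in each group, and the row of ZNF461 is darker in both HTB56 groups than in the A549 groups.

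The unselected lines were compared next. H0R arrays also enter the comparison of H3R with H0R and A0R arrays that of A3R with A0R, so the results are not independent of them. The values compared here may themselves have chosen the stretch, so the calls and p-values describe the members and are no independent evidence. Relative to A0R, 16 of the 29 tested members were lower and 2 were higher in H0R at a limma adjusted p below 0.05, whereas 20.3% of all genes were lower and 24.9% higher, 45.2% in all. The groups did not overlap for 19 members and for 53.2% of all genes. The median difference was -0.59 over the members and -0.01 over all genes. ZFP14, dim on all H0R arrays, is 1 of the 16, and without it 15 of 28 were lower. Without A0R replicate 2 the counts were also 16 and 2, with a median of -0.64. With no filter on dim probe sets the median was -0.33. Of the 15 tested genes before the stretch, 6 were lower and 1 was higher in H0R, with a median of -0.31. Of the 15 after it, 7 were lower and 0 higher, with a median of -0.17. Lower signals in H0R than in A0R were thus not limited to the listed genes.

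ZNF461 separated the lines most. It read 4.07, 3.97 and 3.97 on the H0R arrays, against 6.35, 6.12 and 6.19 on the A0R arrays. The gap far exceeded the spread within either group, the difference was -2.22 (SE 0.12), and the limma adjusted p was 8.62e-10. PPP1R14A, with the arrays given above, was also lower in H0R, and the difference was -1.72 (SE 0.09, limma adjusted p 1.12e-09). ZNF570 read 3.91, 3.91 and 4.30 in H0R, against 5.84, 5.49 and 5.88 in A0R. It was lower in each H0R array, with a difference of -1.70 (SE 0.15, limma adjusted p 3.43e-07).

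ZFP30, ZFP82 and ZNF607 followed. ZFP30 differed by -1.53 (SE 0.14) between means of 5.66 ± 0.16 in H0R and 7.19 ± 0.11 in A0R (SD, n = 3 arrays each, limma adjusted p 2.55e-07). ZFP82 read 3.62, 3.91 and 3.63 on the H0R arrays, against 5.14, 4.82 and 5.48 on the A0R arrays, a difference of -1.43 (SE 0.17, limma adjusted p 5.08e-06). Its H0R signals stood little above the dimness limit and did not overlap those of A0R. ZNF607 averaged 4.80 ± 0.12 in H0R and 6.21 ± 0.07 in A0R (SD, n = 3 arrays each), and the difference of -1.41 (SE 0.11) had a limma adjusted p of 4.29e-08. Without A0R replicate 2 the differences of the 6 named members lay between -2.27 for ZNF461 and -1.38 for ZNF607.

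The members higher in H0R than in A0R were ZNF850, by 0.91 (SE 0.17, limma adjusted p 0.000518), and DPF1, by 0.55 (SE 0.17, limma adjusted p 0.0146). DPF1 encodes a subunit of the BAF chromatin remodelling complex of neurons. The other members called lower were ZNF566, ZNF567, ZNF420, ZNF585B, ZNF383, ZNF569, ZNF573, SIPA1L3 and KCNK6, with differences between -1.11 for ZNF567 and -0.51 for ZNF420, and ZFP14, whose H0R level of 3.10, 3.36 and 3.17 is background. The longest unbroken run below 0 took in 17 tested members in a row, from ZNF790 to SIPA1L3. The call of ZNF420 was lost in 5 of 21 alternatives and that of DPF1 in 2 of 21. ZNF529, ZNF527 and ZNF793 were not called in this comparison but passed with the replicate number as a block, at limma adjusted p-values of 0.0370, 0.0149 and 0.0469. YIF1B was not called either, but was called lower with the mean of its probe sets, at a limma adjusted p of 0.000650. Its dimmer probe set averaged 7.01 in H0R and 7.89 in A0R, and the brighter one, used here, 8.19 and 8.32.

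Between the selected lines, 12 of the 29 members were lower and 4 were higher in H3R than in A3R, while 19.7% of all genes were lower, 24.9% higher and 44.6% called. The groups did not overlap for 20 members and for 51.6% of all genes. The median difference was -0.31 over the members. Without ZFP14, which is dim in HTB56, 11 of 28 were lower. This comparison shares its H3R and A3R arrays with the comparisons of selected with unselected cells. Its values may also have chosen the stretch, so it is a description too. ZNF461 was again lowest in HTB56 relative to A549, with 3.92, 4.23 and 4.29 on the H3R arrays, against 6.37, 6.32 and 6.13 on the A3R arrays. The difference was -2.13 (SE 0.12, limma adjusted p 1.75e-09), and in HTB56 the gene differed between H3R and H0R by only 0.14.

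ZFP14 read 3.12, 3.04 and 3.01 on the H3R arrays, against 4.58, 4.96 and 4.43 on the A3R arrays. It passed the filter through A549 alone and its HTB56 signals were dim on all 6 arrays, so the size of its difference is set by the background and no test is read from it. ZFP82 differed by -1.11 (SE 0.17, limma adjusted p 6.74e-05), with 3.66, 3.92 and 3.56 on the H3R arrays, against 4.79, 4.61 and 5.07 on the A3R arrays. The arrays of the lines did not overlap for either gene. SIPA1L3, a relative of the GTPase-activating proteins of Rap, read 8.01, 8.04 and 7.75 on the H3R arrays, against 9.11, 9.11 and 8.65 on the A3R arrays, a difference of -1.03 (SE 0.17, limma adjusted p 0.000130). ZNF567 averaged 4.58 ± 0.28 in H3R and 5.33 ± 0.04 in A3R (SD, n = 3 arrays each), a difference of -0.75 (limma adjusted p 0.000569).

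ZNF850 ran the other way, with 6.20, 6.21 and 6.27 on the H3R arrays, against 4.72, 5.30 and 4.66 on the A3R arrays. All H3R arrays were higher, by 1.33 on average (SE 0.17, limma adjusted p 1.66e-05). The further members higher in H3R were ZNF529 by 0.69, ZNF585B by 0.59 and ZNF790 by 0.54, with limma adjusted p-values of 0.00204, 0.0148 and 0.00168. Of these, ZNF585B lost its call in 3 of 21 alternatives, which were array weights and the fits without H3R replicate 1 and without A3R replicate 3, and its highest limma adjusted p was 0.0839. ZFP30 differed by -0.22 and ZNF570 by -0.31 between the selected lines, neither called (limma adjusted p 0.217 and 0.124), and ZFP30 passed with the replicate number as a block at 0.0420.

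**Figure D4:**
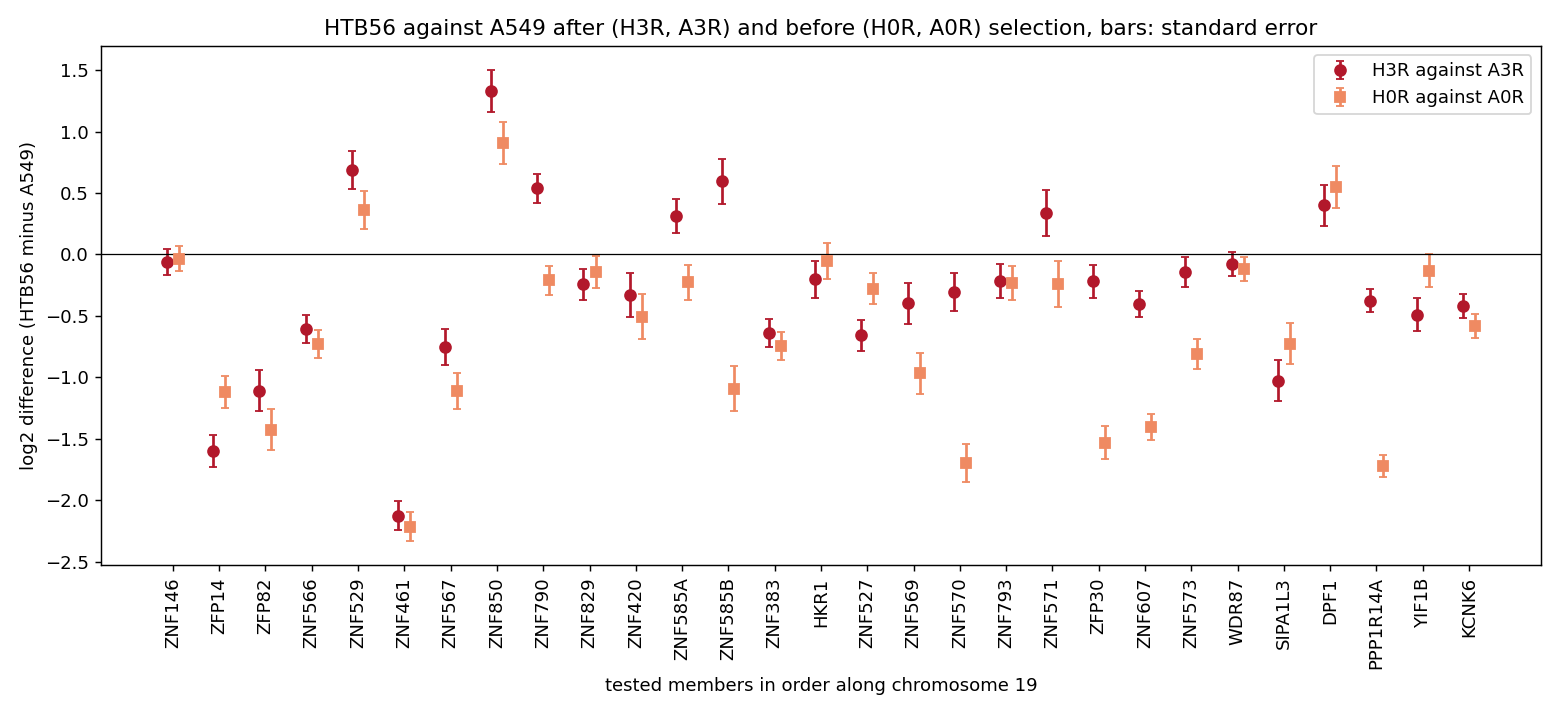
Log2 difference between HTB56 and A549 (y axis) of the 29 tested members in gene order (x axis), as circles for H3R against A3R and squares for H0R against A0R, with the standard error as bars. The square lies far below the circle for ZNF585B, ZNF570, ZFP30, ZNF607 and PPP1R14A, and both lie near -2.13 to -2.22 for ZNF461.

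Ordered by group mean, H0R was the lowest of the 4 groups for 18 of the 29 tested members and H3R for 8. The highest mean was in A3R for 13 members, in A0R for 9, in H3R for 6 and in H0R for 1. For 13 members the H3R mean lay between the H0R mean and both A549 means. For 5 more it reached or passed the lower A549 mean: ZNF790, ZNF420, ZNF585A, ZNF585B and ZNF571. Not all of the 13 were called in H3R against H0R, and ZNF461, for example, differed there by only 0.14. The same counts were not made over all genes, and the H0R values may have chosen the stretch. The order of the groups is therefore a description, and a return toward A549 was not tested. The median over the tested members was 5.59, 5.63 and 5.83 on the H3R arrays, 5.34, 5.10 and 5.53 on the H0R arrays, 5.78, 5.80 and 5.39 on the A3R arrays, and 5.84, 5.58 and 5.74 on the A0R arrays. The H0R arrays lay below the H3R arrays, while 1 A3R array lay among the H0R values.

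The 5 members below the filter were ZNF382, ZNF345, ZNF568, ZNF540 and ZNF781. ZNF382 is a KRAB repressor described as silenced by promoter methylation in tumours, and the mouse counterpart of ZNF568 represses a placental transcript of Igf2. ZNF382 read between 2.82 and 3.01 on the H3R arrays and between 2.84 and 2.93 on the H0R arrays. ZNF568 read between 2.76 and 3.36 on the H3R arrays and between 2.99 and 3.08 on the H0R arrays. Levels this low are near background and give no order between these groups. In A549, ZNF568 read between 3.41 and 3.94 on the A3R arrays, 2 of them above the dimness limit, and between 3.32 and 3.49 on the A0R arrays, so its H3R arrays lay below those of A3R. With no filter on dim probe sets, 13 members were lower in H3R than in A3R. Of the 29 tested members, 26 were above the dimness limit on all 12 arrays, and ZFP14, ZNF829 and ZNF571 were not.

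Some neighbours start close together in opposite directions, so that their promoters adjoin. In ZNF790 with ZNF345, ZNF529 with ZNF382 and ZNF829 with ZNF568, the second gene was below the filter. Those pairs cannot be compared, although ZNF790 differed by 0.82 in H3R against H0R. In the pairs that follow both genes were tested. ZNF461 and ZNF567 start 97 bases apart and were both lower in H0R than in A0R, with differences of -2.22 and -1.11. ZNF569 and ZNF570 start 328 bases apart, and both were lower in H0R than in A0R (-0.97 and -1.70). In H3R against H0R, ZNF570 differed by 1.14 and ZNF569, which was not called, by 0.42. With the replicate number as a block ZNF569 passed there, at a limma adjusted p of 0.0231. WDR87 and SIPA1L3 start 614 bases apart, and only SIPA1L3 was called in H0R against A0R (-0.73, against -0.12 for WDR87). Signals of overlapping or adjacent genes are told apart on these arrays by probe position only.

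The promoter windows of the 11 called members with a RefSeq window had a median of 18 CG, and those of the 16 tested members not called had 26. Genes without a zinc finger symbol enter both groups: PPP1R14A (33) and KCNK6 (16) were called, and WDR87 (40), DPF1 (36), SIPA1L3 (32) and YIF1B (27) were not. Among zinc finger members, the called ones ran from 12 (ZFP30) to 23 (ZNF850) and the others from 16 (ZNF793) to 37 (ZFP82). The called and not called groups were formed from the values of H3R against H0R, so the figures describe them and no test was made.

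The 186 other tested zinc finger genes of chromosome 19 allow the stretch to be set beside its family. In H3R against H0R, 27 of them were higher and 8 lower, with a median of 0.07. Before the stretch 4 of 67 were higher and 7 lower, with a median of -0.01, and after it 23 of 119 were higher and 1 lower, with a median of 0.13. ZNF558 had the largest rise, of 2.02 (SE 0.17, limma adjusted p 1.26e-06), and ZNF724 the largest fall, of -1.07 (SE 0.23, limma adjusted p 0.00409). Of all 1208 tested genes of the chromosome that are no members, these 186 included, 57 were higher and 73 lower. In A3R against A0R, 0 of the 186 were called, with 13 at an unadjusted limma p below 0.05. In H0R against A0R, 53 were higher and 39 lower, with a median of 0.03. Before the stretch 33 of 67 were higher and 4 lower there, with a median of 0.36. After it 20 of 119 were higher and 35 lower, with a median of -0.09. More lower than higher calls were thus seen after the stretch as well as among the members. Whether the members differ from the rest of the family was not tested.

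The proteins that act with KRAB zinc fingers, 27 of 28 tested, changed in both directions in HTB56, 25.9% of them being called, against 19.5% of all genes. In H3R against H0R, 3 were higher and 4 lower, with a median of -0.06, beside 8.57% of all genes higher and 10.9% lower. SUV39H2, a histone H3 lysine 9 methyltransferase, rose by 0.43 (SE 0.10, limma adjusted p 0.00830). MPHOSPH8, a subunit of the HUSH silencing complex, fell by 0.96 (SE 0.10, limma adjusted p 7.56e-06). TRIM28 itself differed by -0.06 and SETDB1 by 0.18. In A3R against A0R, the DNA methyltransferase DNMT3B was the 1 gene called, with a difference of -0.65 (SE 0.11, limma adjusted p 0.00488).

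Between the lines more of these genes were called. In H0R against A0R, 15 were higher and 3 lower, with a median of 0.31, and the ends were CHD4, a remodelling ATPase, at 1.02 and DNMT3B at -0.89. In H3R against A3R, 15 were higher and 2 lower, with ATF7IP, the partner of SETDB1, at 1.26 and the chromatin remodeller ATRX at -0.67. The background shares for these comparisons are those given above, 24.9% of all genes higher in each.

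**Figure D5:**
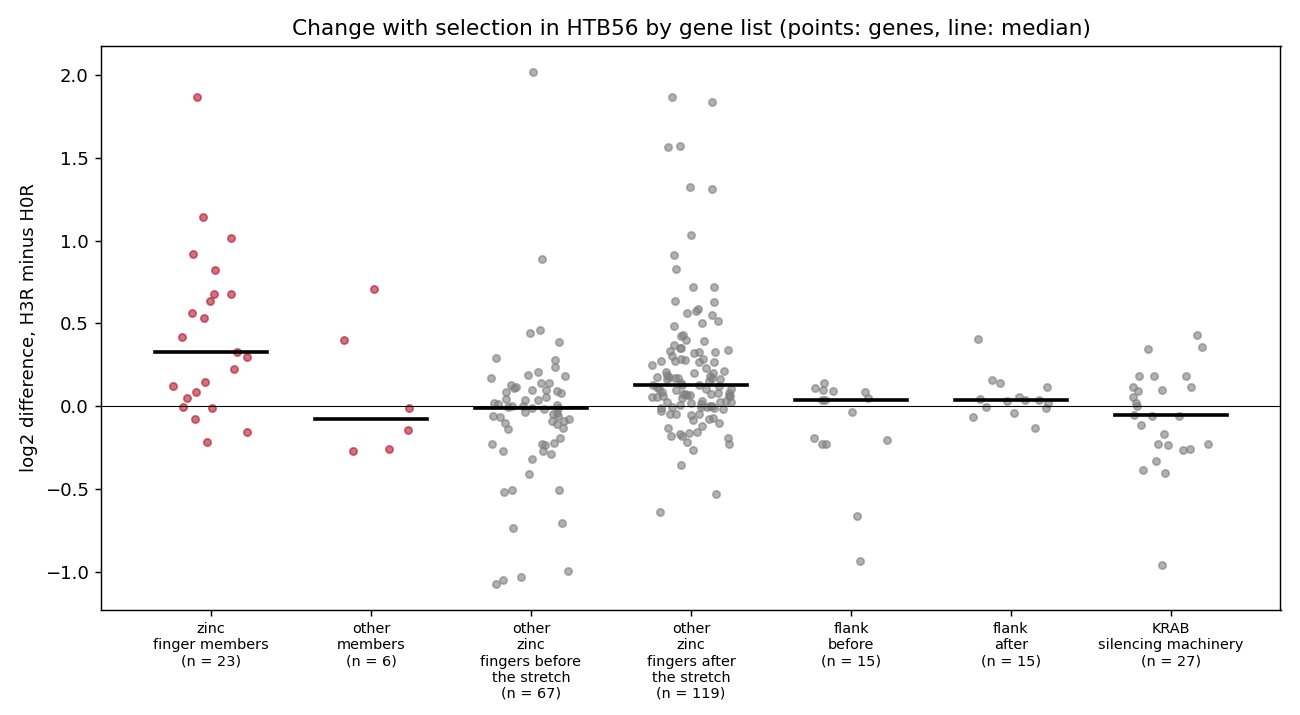
Log2 difference of H3R minus H0R (y axis) for each tested gene (points) of the lists on the x axis, with the list's median as a black line. The zinc finger members have a median of 0.33, the other zinc finger genes before the stretch -0.01 and those after it 0.13.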

How the data were processed

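RNA of 12 samples was labelled with the Affymetrix whole-transcript workflow and hybridised to arrays, per the labels. The deposited values are log2 RMA signals. The submitters' processing notes name RMA and Affymetrix Expression Console, and their versions were not given in the sources used here. The method subtracts background, equalises the distribution of the arrays by quantiles and combines the probes of a set. Scanner files were not used here, so background, normalization of probes and slide could not be varied. Of 33297 probe sets, 19460 named 1 gene, 1754 several and 12083 were not listed in the platform annotation. A probe set was kept where at least 3 of 12 arrays had it above their own 20th percentile, which averaged 3.48, and the brightest represented its gene. This left 16939 genes. There were 0 identical arrays and 0 missing values.

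A mean for each group was estimated in R 4.3.3 with limma 3.58.1 (lmFit, eBayes, two-sided, Benjamini-Hochberg over all genes, threshold 0.05); SE is the standard error of a fitted difference. The script was tested on simulated data. The members and lists were chosen with earlier results of these data known. Values on each array are given for ZNF567, KCNK6 and, per comparison, up to 6 non-overlapping members with the largest differences; ZNF420 in H3R against H0R, ZNF585A, SPINT2 and the dim members were added after their values were seen. Members were classed by symbol, since protein sequences were not used here. Gene order, promoters and coordinates are RefSeq's on GRCh38.p14. Figures were drawn with matplotlib 3.10.9.

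Groups share replicate numbers whose meaning the labels do not give. Deviations from group means correlated at 0.160 to 0.549 between arrays of the same number and at -0.417 to 0.204 otherwise. By this measure 12 of 12 arrays fitted best with their own number, so arrays of the same number deviated together. The correlations do not show what these samples share. The main fit does not use the number, and the replicate block is given as an alternative. Alternatives were the dimness filter, the choice of probe set, median centring, cyclic loess, array weights, the replicate block, only the arrays compared, eBayes with a trend and robust prior, and leaving out each array.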

Additional observations from a re-analysis of the deposited data

Results flagged for a closer look

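The changes with selection in HTB56 and in A549 differed, by the limma contrast of the 2 changes, for 7 members. The change in HTB56 minus the change in A549 was 1.69 for ZNF585B, 1.39 for ZNF570, 1.35 for PPP1R14A, 1.31 for ZFP30, 0.9997 for ZNF607, 0.75 for ZNF790 and 0.67 for ZNF573. For PPP1R14A the change was 0.71 in HTB56 and -0.64 in A549. The call of ZNF573 was lost in 7 of 20 alternatives. These members were chosen with changes in these data known, so the differences describe them and are no independent evidence. A test for single outlying arrays was not made, since each group has 3 arrays.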

How the results depend on the processing

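The count of called members kept within 1.5 times its value in every comparison and alternative run. It ranged from 10 to 15 for H3R against H0R (9 to 12 without single arrays), stayed at 1 for A3R against A0R, and ranged from 14 to 19 for H3R against A3R (15 to 18), from 17 to 21 for H0R against A0R (16 to 21) and from 6 to 10 for the difference of changes (6 to 8). With the replicate block the counts were 15, 1, 19, 21, and 10 for the difference of changes. Besides the calls named in the text, the block added DPF1, lower, and ZNF566 in H3R against H0R, DPF1 and ZNF569 in H3R against A3R, and ZFP14, ZNF527 and ZNF569 in the difference of changes. It changed no other call of a member. Over all genes it gave 562 calls for A3R against A0R and 3458 for the difference of changes, against 297 and 2000 without it, and a fit on only the arrays compared gave 179 for A3R against A0R, so these percentages called depend on the fit. Without single arrays the A549 count was 179 to 286. The median of H0R against A0R was -0.33 with no filter on dim probe sets, against -0.59, because 34 members then enter it; for H3R against H0R it was 0.18, against 0.30. Without single arrays the medians ran from 0.19 to 0.36 for H3R against H0R and from 0.01 to 0.10 for A3R against A0R. Precision is limited by the 3 arrays in each group and by compression of dim genes.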
